A study of Homo sapiens with 4 samples.

Results

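A set of 8 nuclear receptor corepressor and histone deacetylase genes was examined for peaks of PPARα, the fatty acid-sensing nuclear receptor, and of PML/RARA, the fusion oncoprotein of acute promyelocytic leukemia. They were NCOR1, TBL1XR1, GPS2, HDAC3, HDAC1, HDAC2, SIN3A and NRIP1, 8 of the 19974 protein-coding genes on chromosomes 1 to 22 and X. The genes were chosen by name, with earlier results of these data known. Every peak touching a gene body or the 20 kb on either side of it was taken, a stretch called the gene's window here. All 8 were found in the RefSeq annotation of GRCh38.p14, which shares its coordinates with the hg38 build of the peak lists.

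The peaks came from CUT&Tag, in which an antibody guides a transposase to chromatin, in NB4, a human acute promyelocytic leukemia cell line that carries the PML and RARA fusion. Every library was made from NB4, and no drug, dose or time is named in the labels. The 4 libraries were 1 with a PPARα antibody, 1 with a PML/RARA antibody and 1 IgG control for each, and 2 peak lists were analysed, 1 per antibody. The PPARα list held 9819 peaks on these chromosomes (median fold 6.26, median width 503 bases) and the PML/RARA list 45988 (median fold 7.41, median width 241 bases). Fold is the authors' linear enrichment of a peak over background, and q is the authors' q-value, given here as −log10 q; both serve to describe and rank peaks within 1 list. There were no replicates, IgG signal was not used here and the read depth behind each list is unknown, so no difference between the antibodies was tested. Absence of a peak means only that none was called. Which part of the fusion the PML/RARA antibody sees is not stated in the labels, so signal from normal PML or RARA protein may be included.

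Nuclear receptors such as RARα can repress their target genes when no ligand is bound, by holding a corepressor complex. NCOR1 is the platform of one such complex, with TBL1XR1 and GPS2 as core subunits and HDAC3 as the deacetylase that removes acetyl groups from histones. SIN3A is the scaffold of a separate complex built around HDAC1 and HDAC2. NRIP1, also called RIP140, differs in that it binds receptors that carry their ligand. PML/RARA is known for recruiting NCoR and deacetylase complexes to retinoic acid target genes, and all-trans retinoic acid releases them. The peaks described here lie at the genes that encode these proteins and do not measure the proteins.

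PML/RARA peaks lay at the start of 7 of the 8 genes, and PPARα peaks at the start of 3: HDAC2, SIN3A and TBL1XR1. At HDAC1, HDAC3, GPS2 and NCOR1 the start carried PML/RARA peaks without a PPARα peak. NRIP1 had no peak of either antibody anywhere in its window. A start here is a transcription start listed for the gene in the RefSeq promoter table, and a peak lay at it when it reached within 1 kb. Among the 15812 protein-coding genes with a listed start, 59.7% had a PML/RARA peak there, 35.1% a PPARα peak, 34.8% both and 24.9% PML/RARA without PPARα. The PPARα count among the 8 genes was close to that background. It depended on the threshold: the TBL1XR1 peak was lost with −log10 q of at least 5 and the SIN3A peak with fold of at least 5, which left 2 genes each time.

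The start sequences of 6 genes are printed from the RefSeq promoter table of GRCh38.p14, 5′ to 3′ in the direction of the gene, from 250 bases before the start to 50 bases from it on. The first 3 are the starts with peaks of both antibodies, HDAC1 is the start with the highest PML/RARA fold, HDAC3 has PML/RARA alone and a receptor half-site, and NRIP1 has no peak. Capitals mark every match on either strand to AGGTCA, a half-site that nuclear receptors read, to its variants spelled GGGTCA, or spelled AGTTCA, or spelled GGTTCA, to the GC box (GGGCGG), to the CCAAT box and to the ETS core (CCGGAAG). Matches can overlap one another.
HDAC2, chr6:113971099-113971398, minus strand: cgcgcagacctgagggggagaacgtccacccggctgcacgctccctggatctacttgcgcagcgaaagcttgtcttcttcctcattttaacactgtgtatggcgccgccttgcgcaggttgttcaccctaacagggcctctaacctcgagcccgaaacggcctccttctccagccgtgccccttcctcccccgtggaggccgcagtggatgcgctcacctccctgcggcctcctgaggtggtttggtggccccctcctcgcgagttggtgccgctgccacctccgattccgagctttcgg
SIN3A, chr15:75451641-75451940, minus strand: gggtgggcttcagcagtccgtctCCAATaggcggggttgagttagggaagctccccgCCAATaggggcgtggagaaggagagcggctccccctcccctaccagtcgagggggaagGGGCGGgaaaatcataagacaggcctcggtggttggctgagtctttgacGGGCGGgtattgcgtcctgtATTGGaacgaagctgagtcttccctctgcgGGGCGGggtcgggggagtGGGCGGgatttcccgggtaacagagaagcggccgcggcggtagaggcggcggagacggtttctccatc
TBL1XR1, chr3:177197433-177197732, minus strand: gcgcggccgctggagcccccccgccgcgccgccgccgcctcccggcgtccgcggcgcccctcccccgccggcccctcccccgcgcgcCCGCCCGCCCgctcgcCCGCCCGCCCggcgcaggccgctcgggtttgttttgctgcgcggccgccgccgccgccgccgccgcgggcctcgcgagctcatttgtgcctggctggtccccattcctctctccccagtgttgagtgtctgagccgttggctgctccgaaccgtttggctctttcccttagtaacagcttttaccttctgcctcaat
HDAC1, chr1:32291833-32292132, plus strand: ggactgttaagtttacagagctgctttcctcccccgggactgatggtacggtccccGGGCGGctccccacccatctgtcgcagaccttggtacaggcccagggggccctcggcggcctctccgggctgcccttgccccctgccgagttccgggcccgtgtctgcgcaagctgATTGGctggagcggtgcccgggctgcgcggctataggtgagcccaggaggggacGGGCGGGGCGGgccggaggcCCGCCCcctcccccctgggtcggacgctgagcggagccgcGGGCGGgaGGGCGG
HDAC3, chr5:141636800-141637099, minus strand: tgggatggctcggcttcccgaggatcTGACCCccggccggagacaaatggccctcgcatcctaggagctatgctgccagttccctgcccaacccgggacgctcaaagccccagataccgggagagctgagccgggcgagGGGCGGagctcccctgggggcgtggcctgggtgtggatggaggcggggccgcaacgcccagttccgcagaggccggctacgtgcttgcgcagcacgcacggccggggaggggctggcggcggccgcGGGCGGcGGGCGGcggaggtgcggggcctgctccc
NRIP1, chr21:15065887-15066186, minus strand: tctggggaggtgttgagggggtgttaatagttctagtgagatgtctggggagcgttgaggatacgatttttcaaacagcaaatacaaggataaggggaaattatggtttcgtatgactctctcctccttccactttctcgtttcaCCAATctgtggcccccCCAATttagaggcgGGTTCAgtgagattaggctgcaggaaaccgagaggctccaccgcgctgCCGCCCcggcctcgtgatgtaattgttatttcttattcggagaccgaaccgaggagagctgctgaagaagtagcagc

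Receptor half-sites were few in these starts. The 8 genes have 13 listed starts, and 2 of those 13 windows of 300 bases held any of the 4 half-sites, against 35.5% of the 22132 windows of all protein-coding genes. The matches were GGGTCA on the opposite strand at HDAC3, beginning 224 bases before the start, and GGTTCA at the outermost start of NRIP1, beginning 75 bases before it. The PML/RARA peak covered 211 of the 300 bases of the HDAC3 window and did not reach this match, and the NRIP1 window had no peak. No window held 2 half-sites in the same orientation 0 to 5 bases apart, an arrangement found in 0.511% of all windows. The GC box was in 9 of 13 windows (56.3% of all windows), CCAAT in 5 (34.6%) and CCGGAAG in 2 (12.8%), those of NCOR1 and GPS2. HDAC1 had 6 GC box matches and 1 CCAAT, the SIN3A start 4 and 3, and the HDAC2 start none of these. These matches describe letters in the window and no more.

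Across the 8 windows there were 11 PPARα and 41 PML/RARA peaks. A PPARα peak lay in the windows of 7 genes (53.5% of all protein-coding genes) and a PML/RARA peak in those of the same 7 (78.9%). The median number per gene was 1 for PPARα and 4.5 for PML/RARA, against medians of 1 and 2 over all protein-coding genes. These medians were not matched for window length, which ran from 42.7 to 226 kb among the 8, and no excess is read from them. All 11 PPARα peaks overlapped a PML/RARA peak by at least 1 base (exact 95% interval 71.5 to 100%, counting error only), against 90.1% of all PPARα peaks. Conversely, 12 of 41 PML/RARA peaks overlapped PPARα (29.3%, exact 95% interval 16.1 to 45.5), against 21.4% of that list. From each PPARα summit the nearest summit of an overlapping PML/RARA peak lay 60 to 328 bases away, with a median of 269, and for 5 of the 11 PPARα peaks the distance was at most 200 bases.

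The PPARα peaks of these windows lay mostly below the middle of their list by fold. Their folds ran from 2.54 to 10.4 with a median of 5.96, and 2 of the 11 lay above the list median of 6.26. The 4 at own starts ran from 3.49 to 6.06, all below it. PML/RARA folds ran from 2.90 to 30.8 with a median of 6.36, and 19 of 41 lay above that list's median. Of the PPARα peaks, 4 lay at the gene's own start, 4 at the start of a neighbouring protein-coding gene, 1 at the start of a noncoding gene, 1 in the gene's own body and 1 in the body of a neighbour. Any protein-coding start thus accounted for 8 of 11 (72.7%), against 4905 of the 9819 peaks of the list. Of the PML/RARA peaks, 10 lay at the own start, 8 at a neighbour's start, 2 at a noncoding start, 17 in the body of another gene, 2 in the own body and 2 between genes. Any protein-coding start accounted for 18 of 41 (43.9%), against 23.5% of the list. Each window was drawn around a gene with a listed start, while the lists also hold peaks outside such windows. These shares are therefore not like for like, and no enrichment at starts is read from them. Summits of 8 of the 41 PML/RARA peaks and 4 of the 11 PPARα peaks lay inside the gene bodies, and the rest in the flanks, as the map of summits along the windows shows.

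**Figure D1:**
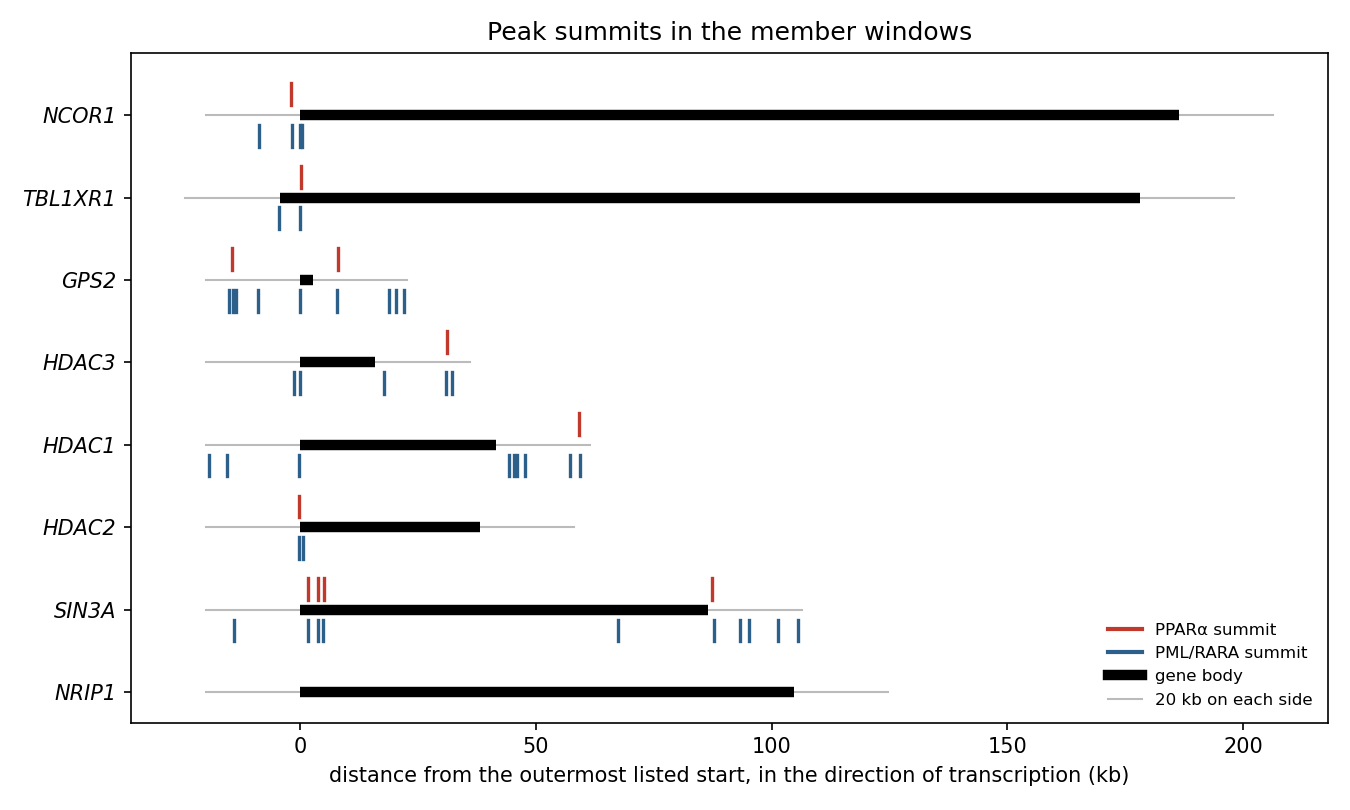
Peak summits in the windows of the 8 genes, drawn by distance in kb from the outermost listed start in the direction of transcription, with PPARα above each gene (red) and PML/RARA below (blue). Black bars are gene bodies and grey lines the 20 kb on each side; the bodies of NCOR1, TBL1XR1 and NRIP1 hold no summit beyond 1 kb downstream of the outermost listed start, while GPS2, HDAC1 and SIN3A have 9, 9 and 10 PML/RARA peaks.

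NCOR1, the largest subunit of its complex, spans 186 kb on the minus strand of chromosome 17 (16029157 to 16215534). Its window held 4 PML/RARA peaks and 1 PPARα peak. The main PML/RARA peak at the start, chr17:16215345-16216294, had a fold of 9.96 (−log10 q 41.2), with its summit 119 bases from the listed start. A weaker one lay just inside the gene (fold 3.73, −log10 q 5.78). The PPARα peak, chr17:16217189-16217605 (fold 6.10, −log10 q 5.94), began 1655 bases from the NCOR1 start and covered the start of PIGL, a GPI anchor synthesis gene that runs the other way from 16217210. A PML/RARA peak of fold 8.82 overlapped it with summits 196 bases apart. The fourth PML/RARA peak, chr17:16223993-16224220, of fold 6.36 (−log10 q 6.52), lay inside PIGL with its summit 8647 bases from the NCOR1 start. The NCOR1 and PIGL starts are 1676 bases apart, so PPARα was called at the PIGL side of this pair and not at the NCOR1 side. The remaining 206 kb of the window toward the gene's finish held no PML/RARA peak, and its second listed start, at 16194639, had no peak of either list.

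TBL1XR1, a WD40 repeat subunit that takes part in the exchange of corepressors for coactivators, spans 182 kb on chromosome 3 (177019344 to 177201800). A PML/RARA peak of fold 12.8 and −log10 q 53.1 (chr3:177197120-177197954) had its summit 3 bases from the listed start at 177197482. A PPARα peak overlapped it, chr3:177197029-177197477, with a fold of 5.55 (−log10 q 4.88) and its summit 272 bases away from that start, inside the gene. That PPARα peak ranked 6146 of 9819 by −log10 q. It covered 45 of the 300 bases of the printed start window, and the PML/RARA peak covered all of them. A second PML/RARA peak of fold 5.46 lay at 177201820 to 177201952, just past the annotated outer end of the gene. The 198 kb downstream were free of peaks in both lists.

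GPS2, a small subunit that joins NCOR1 and TBL1XR1 in the complex, is a 2.7 kb gene in a crowded stretch of chromosome 17 (7312661 to 7315360). A PML/RARA peak, chr17:7314806-7315446, with fold 8.39 and −log10 q 22.4, had its summit 37 bases from the start. No PPARα peak lay there, and the nearest was 7.42 kb away. That PPARα peak, chr17:7306938-7307936, was the strongest of the 8 windows, with a fold of 10.4 (−log10 q 22.5), and it lay at the start of EIF5A, a translation factor gene, where PML/RARA reached a fold of 18.2 (−log10 q 230). The other PPARα peak of the window, of fold 5.60, lay at the start of NEURL4 beside a PML/RARA peak of fold 19.0. GPS2 therefore stood between a pair of starts with both antibodies while its own start carried PML/RARA alone.

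HDAC3, the deacetylase of the NCOR1 complex, spans 16 kb on chromosome 5 (141620881 to 141636849). Its start is 148 bases from that of RELL2, which runs the other way, and a single PML/RARA peak covered the interval. That peak, chr5:141636809-141637019, had a fold of 10.04 (−log10 q 21.3), and its summit was 50 bases from the HDAC3 start. The window's highest PML/RARA fold, 24.9, lay at the start of DIAPH1, a formin gene, 17716 bases from the HDAC3 start. The nearest PPARα peak was 30.7 kb away inside DIAPH1 (fold 5.96, −log10 q 5.48), where it overlapped a PML/RARA peak of fold 12.6 with summits 60 bases apart.

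HDAC1, a deacetylase of the SIN3, NuRD and CoREST complexes, had the highest PML/RARA fold of any start among the 8 genes. The gene spans 41.5 kb on the plus strand of chromosome 1 (32292083 to 32333626). The peak, chr1:32291826-32292319, had a fold of 30.8, above 99.6% of the list, and a −log10 q of 175, which ranked 1486 of 45988. It covered the printed window in full, and its summit was 121 bases from the start. No PPARα peak lay near it, the closest being 59.1 kb away. Among PML/RARA start peaks of like fold, within 10% of that value, 180 of 226 overlapped a PPARα peak (79.6%, exact 95% interval 73.8 to 84.7), so HDAC1 belonged to the minority without one. The one PPARα peak of the window, chr1:32351172-32351503 (fold 7.08, −log10 q 7.44), lay past the gene at noncoding starts, with a PML/RARA peak of fold 14.8. Between the gene's finish and that site were 5 further PML/RARA peaks, with folds from 3.87 to 12.2, around MARCKSL1 and the noncoding genes LOC124903949 and LOC105378629. The HDAC1 body held no summit of either list.

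HDAC2, the close paralog of HDAC1, had both antibodies at its start, at a lower PML/RARA fold. It spans 38.1 kb on chromosome 6 (113933028 to 113971148). The PML/RARA peak, chr6:113971031-113971558, had a fold of 19.3 (−log10 q 45.5). The PPARα peak, chr6:113970992-113971397, reached 6.06 in fold and 5.63 in −log10 q. Their summits were 106 bases apart, and 242 and 136 bases from the start. The PPARα peak covered 299 of the 300 bases of the printed window and the PML/RARA peak all 300. Among PML/RARA start peaks of like fold, 74.7% overlapped PPARα. A second PML/RARA peak of fold 3.72 and −log10 q 2.15 lay inside the gene, at the start of the antisense transcript HDAC2-AS2. Nothing else was called in the window, which like that of TBL1XR1 held 1 PPARα and 2 PML/RARA peaks. The pair of paralogs thus differed in these lists in whether PPARα was called at the start, with 1 list per antibody and no replicate behind the difference.

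**Figure D2:**
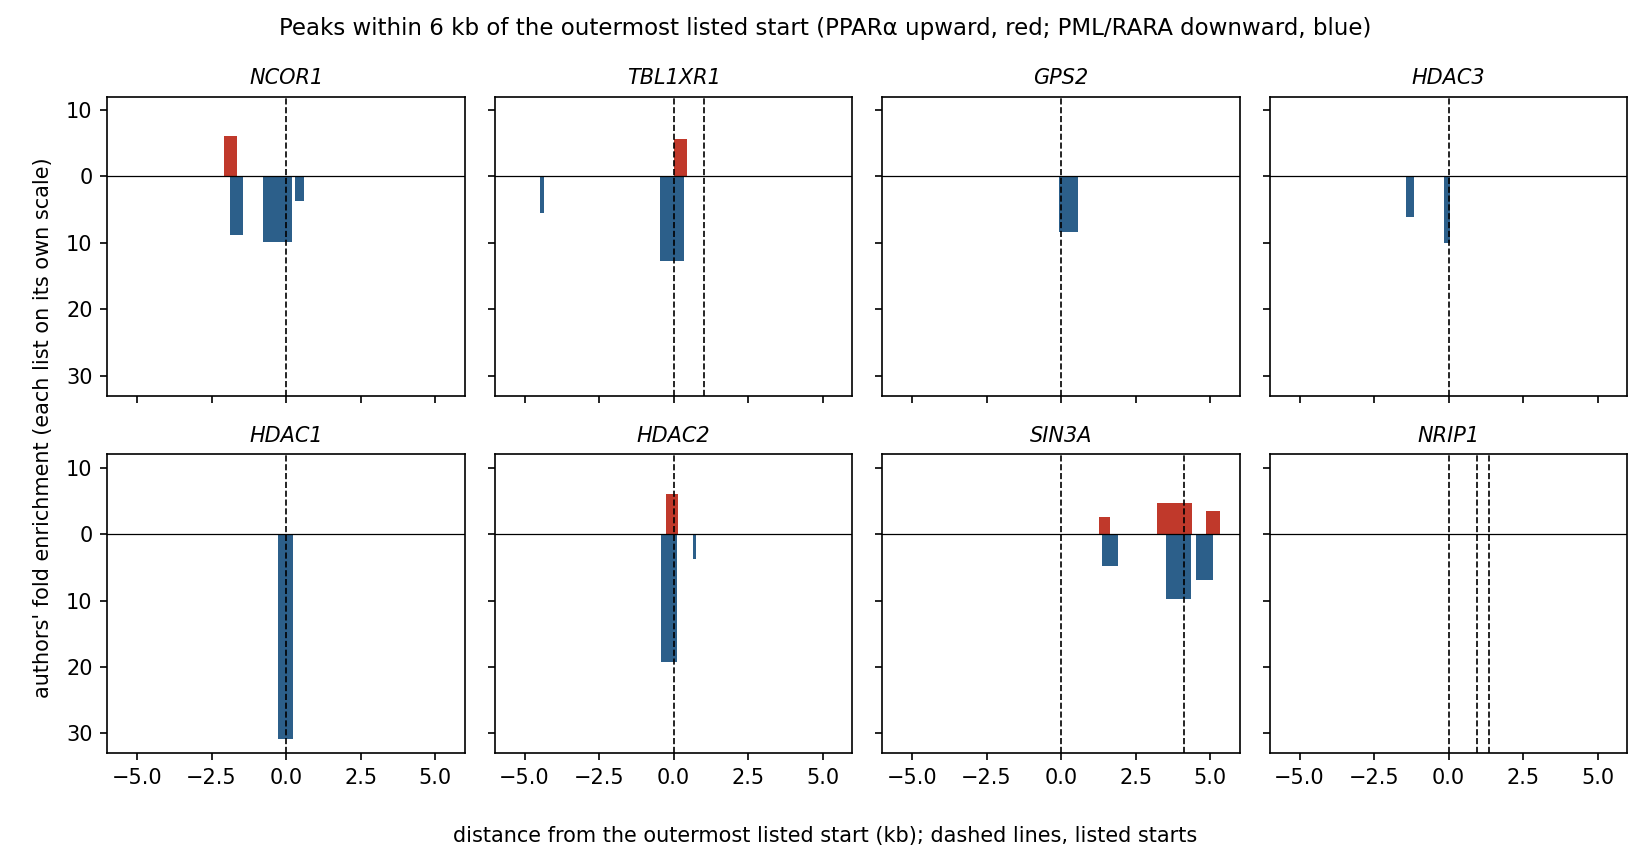
Peaks within 6 kb of the outermost listed start of each gene, with distance in kb on the x axis and the authors' fold on the y axis, PPARα drawn upward in red and PML/RARA downward in blue; dashed lines are listed starts. HDAC1 has the highest PML/RARA fold (30.8) and no PPARα peak, HDAC2 and TBL1XR1 have both, the SIN3A peaks sit at and around its inner start, and the NRIP1 panel is empty.

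The order of the genes by PML/RARA at the start depended on the value used. Ordered by the fold of the main PML/RARA start peak, the genes were HDAC1 (30.8), HDAC2 (19.3), TBL1XR1 (12.8), HDAC3 (10.04), NCOR1 (9.96), SIN3A (9.82) and GPS2 (8.39). HDAC3, NCOR1 and SIN3A could not be told apart by fold, since no error is known for any of these values. PPARα was called at the second, the third and the sixth. Ordered by −log10 q of the same peaks, they were SIN3A (410), HDAC1 (175), TBL1XR1 (53.1), HDAC2 (45.5), NCOR1 (41.2), GPS2 (22.4) and HDAC3 (21.3), with PPARα at the first, the third and the fourth. At the folds of HDAC3, NCOR1 and GPS2, 42.3%, 41.4% and 33.6% of PML/RARA start peaks overlapped PPARα, so a start without it was the more frequent case there. The same held at the folds of the SIN3A start peaks (40.4% at 9.82 and 28.9% at 6.88), both of which did overlap PPARα. By fold SIN3A was thus the less frequent case. That holds for matching on fold only, since these 2 peaks had −log10 q of 410 and 220. Shares at like −log10 q are not given here.

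SIN3A had the most peaks and the most PPARα peaks of the 8. It spans 86.4 kb on chromosome 15 (75369379 to 75455815), and its window held 10 PML/RARA and 4 PPARα peaks. Of all protein-coding genes, 1.21% had 4 or more PPARα peaks in their windows, and 6.99% had 10 or more PML/RARA peaks. These shares were not matched for window length. Of its PPARα peaks, 3 lay within the first part of the gene, and the other at the start of the neighbouring MAN2C1, a mannosidase gene (fold 6.14, beside a PML/RARA peak of fold 18.9).

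The SIN3A peaks gathered at the inner of its listed starts. The outermost start, at 75455815, had no peak of either list within 1 kb, and the peaks lay around the one at 75451690. There the PPARα peak chr15:75451410-75452612, at 1203 bases the widest of the 11, had a fold of 4.71 (−log10 q 13.6). The PML/RARA peak chr15:75451455-75452287 had a fold of 9.82 (−log10 q 410), with summits 113 bases apart. Both covered the printed window in full. Inside the gene the next PML/RARA peak had a fold of 6.88 (−log10 q 220), and the PPARα peak overlapping it a fold of 3.49 (−log10 q 6.09). Between the listed starts lay one more overlapping pair, with a PML/RARA fold of 4.77 (−log10 q 110) and a PPARα fold of 2.54 (−log10 q 2.19).

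Several of these SIN3A peaks had a high −log10 q for their fold. The PML/RARA peak at the inner start ranked 198 of 45988 by −log10 q, while 64.3% of the list had a lower fold. Among the 4322 PML/RARA peaks within 10% of its fold the median −log10 q was 16.3, and 0.0231% of them reached its value. The peak itself is counted in this share and in those that follow. For the peaks of fold 6.88 and 4.77 the median −log10 q at like fold was 8.44 and 4.11, and 0.130% and 0.106% of such peaks reached theirs. By −log10 q divided by fold the 3 peaks ranked 21, 51 and 163 in the PML/RARA list. In the PPARα list the wide peak had a −log10 q of 13.6 against a median of 3.38 at like fold, and 0.171% of such peaks reached it. For the PPARα peak of fold 3.49 that share was 0.399%. The PPARα peak of fold 2.54 had the lowest fold of the whole list and no other peak of like fold to compare, and its −log10 q of 2.19 ranked 9235 of 9819. The MAN2C1 peak in the same window did not show this, since 15.6% of PML/RARA peaks of like fold reached its −log10 q of 136. Outside SIN3A, no PML/RARA peak of the 8 windows had a share below the 3.92% of a peak near MARCKSL1. The trait was not particular to SIN3A among corepressor genes. In the wider list described below, PML/RARA start peaks of SIRT4 (fold 10.3, −log10 q 393) and ING1 (12.7, 362) also had a high −log10 q for their fold. Their shares at like fold are not given here.

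**Figure D3:**
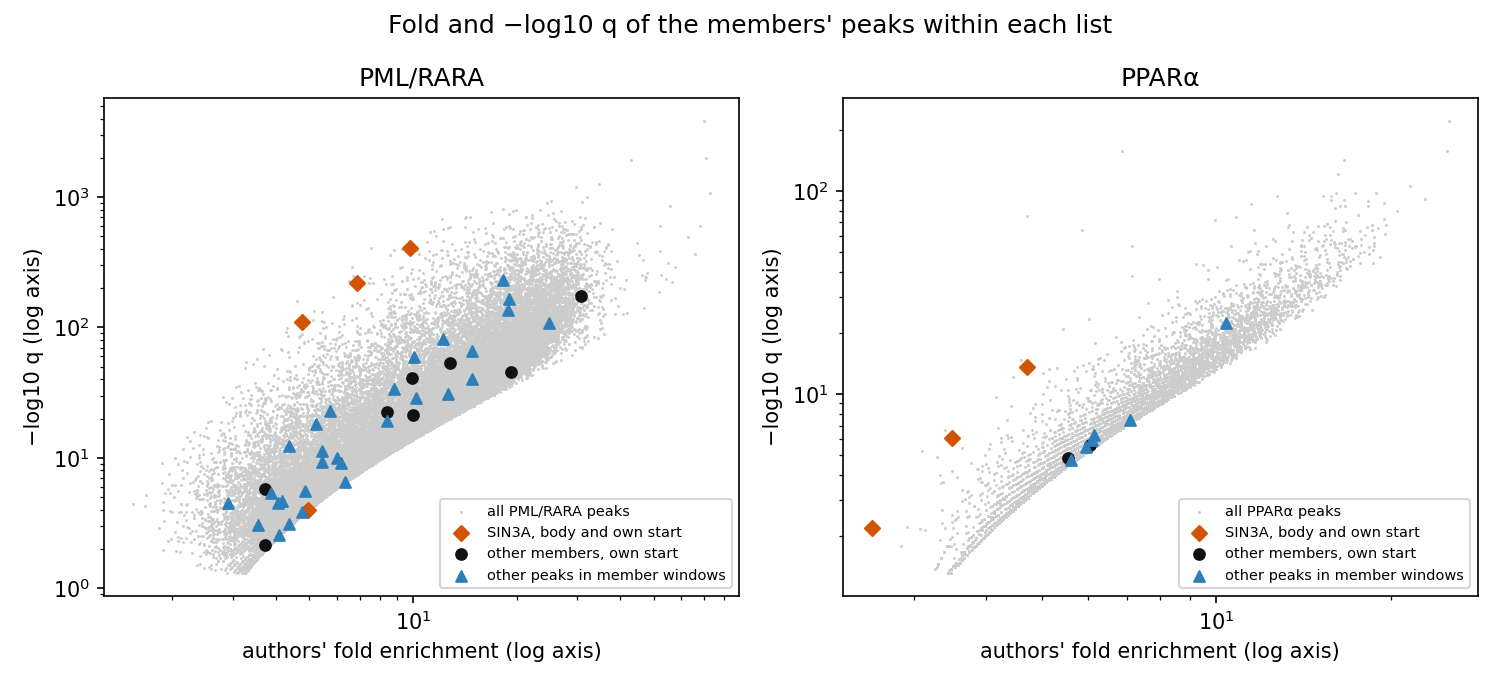
The authors' fold (x) against −log10 q (y), both on log axes, for all PML/RARA peaks (left) and all PPARα peaks (right) in grey, with the peaks of the 8 windows on top. Diamonds are SIN3A peaks at its start or in its body, circles own-start peaks of the other genes and triangles the remaining window peaks; 3 SIN3A diamonds on the left and 2 on the right lie at the upper left edge of the cloud, the fourth PML/RARA diamond, of fold 4.95, lies within it, and the PPARα diamond of fold 2.54 lies low at the far left.

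NRIP1, a corepressor of ligand-bound receptors and itself a known retinoic acid-induced gene, had no peak in its 145 kb window on chromosome 21 (gene body 14961235 to 15065936). The nearest PML/RARA peak was 156 kb from a listed start (fold 5.71, −log10 q 5.34) and the nearest PPARα peak 664 kb away (fold 6.01). Among the 4071 protein-coding genes with windows of 100 to 250 kb, 16.4% had no peak of either list (20.4% of all protein-coding genes), so an empty window of this size was not rare. No other protein-coding start lies in the NRIP1 window. Its 3 start windows had a GC content of 50.7, 69.0 and 80.0%, against a median of 62.3% over all windows, and each held a GC box.

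The wider set of corepressor genes was a list of 59 further subunits and deacetylases, sorted by complex. It too was chosen with earlier results of these data known. A start was listed for 54 of them; HDAC5, SIRT7, SAP18, RCOR2 and NR0B2 had none and enter the window counts only. PML/RARA peaks lay at the start of 48 of 54 (59.7% of all genes) and PPARα peaks at 29 of 54 (35.1%). Both lay at 28, PML/RARA alone at 20, and PPARα alone at 1, HDAC8 (fold 5.08, −log10 q 3.73). In their windows 58 of 59 had a PML/RARA peak (78.9% of all genes) and 51 a PPARα peak (53.5%). NR0B1, the gene of the orphan receptor DAX1, was the one with neither.

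The SIN3 complex list had PPARα at 9 of 13 starts (69.2%, against 53.7% of the wider list and 35.1% of all genes) and PML/RARA at 12 (92.3%, against 88.9% and 59.7%). By −log10 q it supplied 5 of the 6 highest PPARα start peaks of the wider list: ARID4B (fold 15.3, −log10 q 56.8), ING1 (9.23, 43.5), ARID4A (12.9, 41.4), RBBP4 (14.3, 35.3) and BRMS1L (15.0, 33.6), all with PML/RARA peaks. ING1 encodes a reader of methylated histone H3, and RBBP4 a histone-binding chaperone shared with NuRD. RBBP4 and RBBP7 (PPARα fold 5.51) were counted in the SIN3 list only, so the shares of both groups depend on where shared subunits were placed. The sixth was HDAC4 (15.3, 37.7), a class II deacetylase gene, where PML/RARA reached a fold of 21.5. By fold, GATAD2A (13.0), HDAC6 (11.6), LCOR (9.68), RCOR1 (9.62), RCOR3 (9.54) and SAP130 (9.51) stood above ING1 as well. The lower end of the wider list, such as SIRT1 (5.55), TBL1X (4.78) and BRMS1 (3.57), held PPARα folds like those at the starts of HDAC2 (6.06), TBL1XR1 (5.55) and SIN3A (4.71). SIN3B, the paralog of SIN3A, had no peak of either list at its start.

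The other groups, like the SIN3 list, had PML/RARA at most starts and PPARα at fewer. PPARα lay at 5 of 6 sirtuin starts (83.3%), a larger share than the 69.2% of the SIN3 list. It lay at 4 of 7 of the other zinc-dependent deacetylases (57.1%) and at 4 of 9 NuRD genes (44.4%). It also lay at 2 of 5 CoREST genes, 1 of 3 MiDAC genes and 3 of 9 other corepressors, against 35.1% of all genes. The CoREST, MiDAC and other corepressor groups, at 40.0, 33.3 and 33.3%, were near that share. PML/RARA lay at 6, 5, 8, 5, 3 and 7 of these, against 59.7% of all genes. The highest PML/RARA values by −log10 q were at SIRT4 (fold 10.3, −log10 q 393), MTA2 (16.7, 373), ING1 (12.7, 362), ARID4B (19.9, 302), GATAD2A (23.5, 299) and HDAC6 (22.9, 227). Each of these had a PPARα start peak as well, with folds from 6.09 at SIRT4 to 15.3 at ARID4B. TBL1X, the paralog of TBL1XR1, had both within 1 kb of a listed start (PPARα fold 4.78, PML/RARA fold 15.2). These peaks, chrX:9464157-9464714 for PPARα and chrX:9463001-9463380 for PML/RARA, shared no base. For wider-list genes only the start peak with the highest −log10 q was taken from each list. Overlap of the TBL1X PPARα peak with another PML/RARA peak was not examined. CORO2A had PML/RARA alone (11.1).

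**Figure D4:**
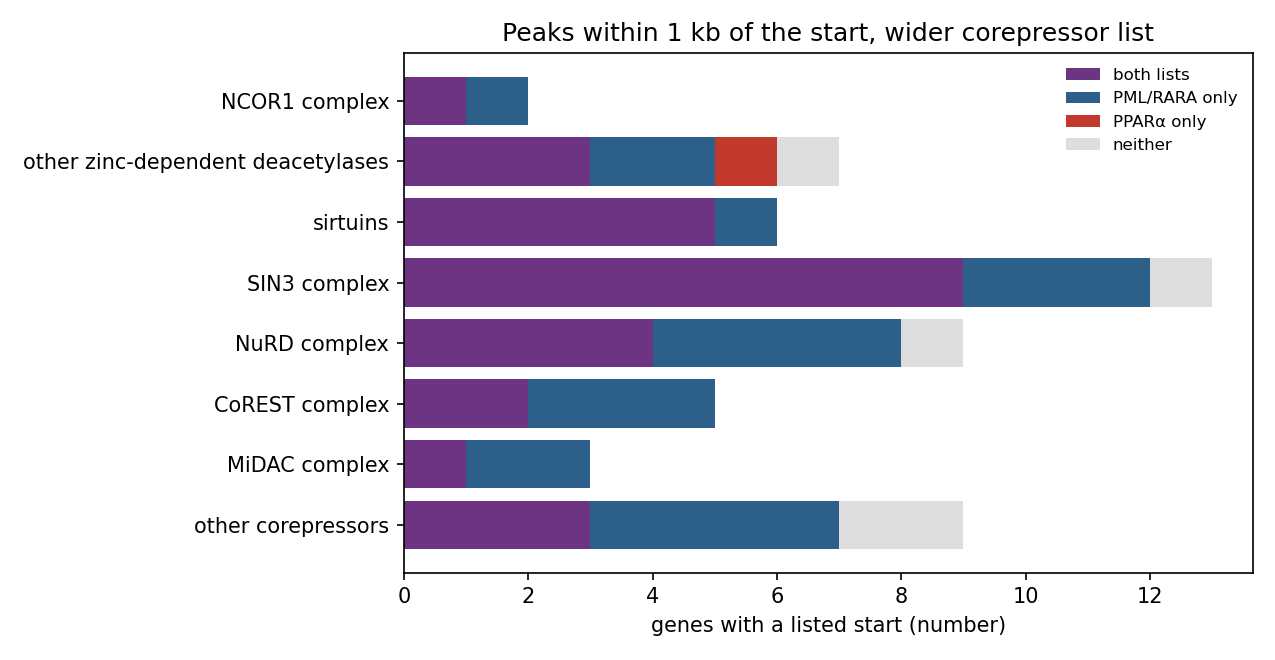
Number of genes in each group of the wider corepressor list (x axis, genes with a listed start) with peaks of both lists within 1 kb of the start (purple), PML/RARA only (blue), PPARα only (red) or neither (grey). PPARα alone occurs once, at HDAC8, and 28 of 54 genes have both.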

How the data were processed

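CUT&Tag peak lists from NB4 cells were used, 1 for a PPARα and 1 for a PML/RARA antibody. Per the submitters' processing notes, the build was hg38 and the tools were Bowtie2 2.2.9, SAMtools, MACS 1.4.2 and bedtools; their roles and settings, and the use of IgG, are not given in the sources used here. The narrowPeak layout belongs to later MACS releases, and the release that made the calls is not known. The deposited columns used were the authors' fold (a ratio over background) and −log10 q, with summit positions; the deposited score and −log10 p columns were not used further. Depth is unknown.

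Peaks on chromosomes 1 to 22 and X were kept (10 PPARα and 33 PML/RARA peaks left out). Gene bodies came from RefSeq, GRCh38.p14, and starts, strands and sequences from the RefSeq promoter table, which matched 15812 of 19974 protein-coding genes and all 8 members. Overlaps of at least 1 base were counted with Python 3.11.15, pandas 2.3.3 and scipy 1.17.1 (exact binomial 95% intervals); the counting was tested on simulated data. No test between conditions was possible. The promoter table was checked for strand on the overlapping HDAC3 and RELL2 windows, whose 247 shared bases were reverse complements.

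The members, the wider list and the groups were chosen with earlier results of these data known. Genes named from the wider list were the 6 with the highest −log10 q at the start in each list. Those without any peak in the window were named too. HDAC8, SIN3B, TBL1X, CORO2A, SIRT1, BRMS1, LCOR, RCOR1, RCOR3, SAP130 and RBBP7 were added after their values were seen. A related gene is not reported here. Alternatives changed the thresholds, flank, start window, overlap rule and PML/RARA list length.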

Additional observations from a re-analysis of the deposited data

How the results depend on the processing

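Of 51 alternative counts, 46 stayed within 1.5 times the main count. That bound is wide for small counts, since 2 PPARα starts in place of 3 fell within it. The 41 PML/RARA peaks in the windows became 27 with fold of at least 5, 21 with flanks of 5 kb, 62 with flanks of 50 kb and 14 when the PML/RARA list kept as many peaks as the PPARα list, highest −log10 q first. The 11 overlapping PPARα peaks became 5 when summits had to lie within 200 bases. The count of genes with PML/RARA at the start stayed at 7 with −log10 q of at least 5, with fold of at least 5 and with start windows of 500 bases, and fell to 5 with the shortened list, which dropped GPS2 and HDAC3. PPARα starts numbered 2 with −log10 q of at least 5 (without TBL1XR1) and 2 with fold of at least 5 (without SIN3A). With start windows of 5 kb they numbered 4, NCOR1 being added. Taking only outermost starts, or both annotated ends, alternatives chosen after seeing the data, gave 2 genes with PPARα each. With outermost starts these were HDAC2 and TBL1XR1. With both annotated ends they were HDAC2 and SIN3A, and SIN3A counted only through its finish, near the peak at the MAN2C1 start. Genes with PML/RARA then numbered 6 with outermost starts and 7 with both annotated ends, where SIN3A again counted only through its finish. In the wider list PPARα starts ranged from 22 to 34 and PML/RARA starts from 37 to 52. The 52 came with both annotated ends in place of listed starts, a setting that does not need a listed start and counts gene finishes too. The share of all protein-coding genes under each alternative is not given here, so these ranges have no background beside them. Unknown depth limits every absence of a peak.

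No paired analysis was possible because the labels give no replicate numbers and no result comes from a test.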
